A study of Homo sapiens with 2 samples.

Results

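The Hippo kinases, their upstream regulator NF2, the coactivators YAP1 and WWTR1 and the TEAD transcription factors are described here by the JARID2 peaks listed at their genes. The members are the 10 genes STK3, STK4, LATS1, LATS2, NF2, YAP1, WWTR1, TEAD1, TEAD3 and TEAD4, and every peak whose gene symbol is one of these was taken. They hold 24 of the 67071 peaks in the authors' list. The peaks come from ChIP-seq, in which DNA bound by JARID2 is precipitated from fixed chromatin and sequenced, carried out in untreated MDA-MB-231 cells, an established line from a human triple-negative breast cancer. The study has 1 ChIP library, made with a polyclonal JARID2 antibody, and 1 library of input DNA. Only the peak list of the ChIP library was used. With 1 library no value has a replicate check, no test between groups was possible, and the depth of the libraries is unknown. Fold enrichment (a linear ratio of ChIP to the peak caller's background), tag counts and the false discovery rate (FDR, in percent) are the authors' values for each peak.

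In the Hippo pathway the kinases encoded by STK3 (MST2) and STK4 (MST1) phosphorylate the kinases LATS1 and LATS2, which in turn phosphorylate YAP1 and WWTR1 (TAZ) and keep them out of the nucleus. Where that restraint is lifted, YAP1 and WWTR1 enter the nucleus and activate genes through TEAD proteins, which bind the DNA. NF2 encodes merlin, a membrane scaffold that promotes LATS activation, and MDA-MB-231 cells are known to carry an inactivating mutation of NF2. JARID2 is a partner of the core PRC2 complex of the Polycomb group, which methylates lysine 27 of histone H3 and is often found at CpG-rich promoters.

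The TEAD3 promoter is shown because the gene carried the peak of largest fold enrichment among the members. The NF2 promoter is shown for a peak across the transcription start site (TSS). WWTR1 also had a peak across a TSS, and its windows are described below but not printed. The promoters of YAP1 and LATS2 are shown because they hold a TEAD site, while LATS2 had no promoter peak. Each run is the RefSeq window on GRCh38.p14 of 250 bases before to 50 bases after a start, read 5′ to 3′ on the gene's strand. The windows are chr6:35497030-35497329 (minus strand) for TEAD3, chr22:29603306-29603605 (plus strand) for NF2, chr11:102110197-102110496 (plus strand) for YAP1 and chr13:21061537-21061836 (minus strand) for LATS2. Capitals mark the GC box (GGGCGG or CCGCCC) and the TEAD site (GGAATG or CATTCC). The peaks are on hg19, and the windows were not placed against them.
TEAD3: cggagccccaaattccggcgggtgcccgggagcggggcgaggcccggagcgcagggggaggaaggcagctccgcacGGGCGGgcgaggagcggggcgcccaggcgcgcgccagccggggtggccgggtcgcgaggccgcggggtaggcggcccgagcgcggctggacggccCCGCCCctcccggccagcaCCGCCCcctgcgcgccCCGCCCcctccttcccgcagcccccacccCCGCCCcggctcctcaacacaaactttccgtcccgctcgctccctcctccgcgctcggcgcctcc
NF2: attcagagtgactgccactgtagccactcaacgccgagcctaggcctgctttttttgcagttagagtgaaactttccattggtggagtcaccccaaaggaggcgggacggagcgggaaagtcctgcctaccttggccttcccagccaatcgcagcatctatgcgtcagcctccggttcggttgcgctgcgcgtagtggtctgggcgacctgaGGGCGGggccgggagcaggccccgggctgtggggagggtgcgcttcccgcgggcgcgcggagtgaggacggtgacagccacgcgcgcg
YAP1: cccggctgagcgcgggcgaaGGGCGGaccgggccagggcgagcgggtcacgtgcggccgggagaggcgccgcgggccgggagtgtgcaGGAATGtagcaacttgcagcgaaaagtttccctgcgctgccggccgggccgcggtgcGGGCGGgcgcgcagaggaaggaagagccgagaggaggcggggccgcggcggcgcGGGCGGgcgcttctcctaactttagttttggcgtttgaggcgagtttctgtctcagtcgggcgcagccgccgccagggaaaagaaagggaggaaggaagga
LATS2: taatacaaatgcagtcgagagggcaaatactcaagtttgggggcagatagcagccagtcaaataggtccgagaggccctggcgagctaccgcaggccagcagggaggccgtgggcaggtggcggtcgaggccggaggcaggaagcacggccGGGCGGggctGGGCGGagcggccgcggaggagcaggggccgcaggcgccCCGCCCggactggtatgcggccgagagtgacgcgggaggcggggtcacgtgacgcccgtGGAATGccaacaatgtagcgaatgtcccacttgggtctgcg

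The TEAD3 window held 44 CpG dinucleotides and 5 GC boxes, against a median of 21 CpGs over 22199 windows of protein-coding genes. YAP1 had 40 CpGs and 3 GC boxes, and LATS2 had 29 CpGs and 3 GC boxes. The NF2 window shown had 27 CpGs and 1 GC box, and the other NF2 window had 39 CpGs and 1 GC box. Not all windows of the members were CpG-rich: the WWTR1 windows held 1 and 18 CpGs and no GC box, and the LATS1 windows held 3 and 38. A GC box occurred in 56.3% of all windows. The TEAD site was present once in the YAP1 window and once in the LATS2 window, and occurred in 12.2% of all windows. The 7 members with a RefSeq window have 10 windows in all, and the other 8 windows held no TEAD site by this search of both strands. STK3, TEAD1 and TEAD4 had no matched window, so nothing is said here of their promoter sequences. The E-box CACGTG was found once in the windows of YAP1, LATS2 and STK4 and in 8.34% of all windows. The pentamer GAGAG occurred 3 times in LATS2, 2 times in YAP1 and 0 times in TEAD3, and in 62.6% of all windows.

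The strongest peaks at the 10 genes were a pair of wide, tag-rich peaks at TEAD3 and STK3, and most of the other 22 were weak. The 24 peaks held 544 tags, of which the TEAD3 and STK3 peaks held 176 (32.4%). These were the 2 peaks with an FDR of 0 and the 2 within a limit of 5%, which 1.24% of all peaks met. NF2 and TEAD4 added peaks with an FDR of 8.73% and 17.94%, so that 4 of 24 peaks lay at or below 20%, a limit reached by 4.15% of all peaks. All 4 were promoter-class peaks, annotated within 3 kb of a TSS. Of the promoter-class peaks of protein-coding genes, 12.7% reached the limit of 20% and 5.73% that of 5%. The other 20 had an FDR between 23.71% and 48.76%. The median fold enrichment of the 24 peaks was 5.52 (range 4.04 to 11.24), against 5.95 (2.62 to 158.75) over all peaks. The median tag count was 14 for the 24 peaks and 12 for all peaks. Of the 24 peaks, 11 lay above the median fold enrichment of the list.

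**Figure D1:**
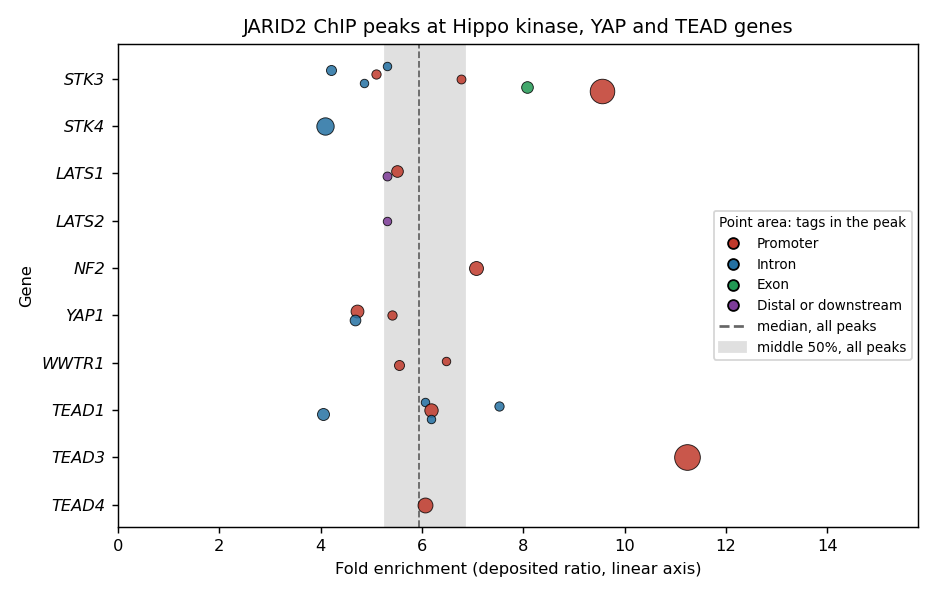
Each point is 1 peak of the JARID2 ChIP library, placed by gene (rows) and by the deposited fold enrichment (horizontal, linear axis), with the area of the point proportional to its tags and the colour giving the annotation class. TEAD3 at 11.24 and the largest STK3 point at 9.55 stand furthest right of the grey band, which holds the middle 50% of all peaks (5.28 to 6.85, dashed median 5.95). Another STK3 peak (8.08), a TEAD1 peak (7.53) and the NF2 peak (7.06) also lie right of the band.

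Promoter-class peaks, which the annotation gives within 3 kb of a TSS, were listed for 8 of the 10 genes, and STK4 and LATS2 were the exceptions. Among all 20037 protein-coding genes 33.1% had such a peak, and 56.3% had any peak. All 10 members have at least 1 peak because the rule takes genes named in the list, so the share among genes with any peak, 58.8%, is the closer background. Of the 24 peaks 12 were in the promoter class (50%, 95% exact interval 29.1 to 70.9), against 29.6% of the peaks given to protein-coding genes and 20.5% of all peaks. These intervals cover counting error only, and peaks of 1 gene are not independent. Peaks overlapping a TSS were found at STK3, NF2, WWTR1 and TEAD4, 4 of 10 genes, against 13.8% of protein-coding genes and 24.6% of those with any peak. A promoter-class peak with an FDR of at most 5% was found at TEAD3 and STK3, 2 of 10 genes, against 2.47% of protein-coding genes and 4.39% of those with any peak. The members were picked with results of this list known, so these counts are descriptions.

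The upstream regulator NF2 had 1 peak, which lay across its TSS. It spanned chromosome 22 from 29999020 to 30000059, a width of 1040 bp, with 27 tags (95% Poisson interval 17.8 to 39.3), a fold enrichment of 7.06 and an FDR of 8.73%. Its summit was 165 bp downstream of the start of the listed transcript. Among the 6639 protein-coding genes with a promoter-class peak, 31.4% had a highest fold enrichment at least as large as that of NF2. The peak stood above the middle of the promoter peaks by fold enrichment, and its FDR missed the limit of 5%.

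STK3 had 7 peaks, the most of the 10 genes, and 1 of them was strong. That peak covered chromosome 8 from 99953227 to 99955270 (2044 bp) and held 84 tags (67.0 to 104), with a fold enrichment of 9.55 and an FDR of 0. Its summit lay 31 bp upstream of the start at 99954799, the outermost start listed for the gene. By tags it ranked 87 of all 67071 peaks, and by width 79, whereas by fold enrichment it ranked 1156. The other 6 STK3 peaks held 10 to 19 tags with fold enrichments of 4.21 to 8.08 and FDRs of 34.13% to 48.76%. The highest of them, 8.08 with 19 tags (11.4 to 29.7), was on exon 2 of 2 of a short STK3 transcript, at 99887468 to 99888264. A pair of promoter-class peaks with 12 and 11 tags flanked starts that lie about 116.9 kb inside the gene, where the fold enrichments were 5.09 and 6.77. The remaining 3 were intronic, with 10, 14 and 10 tags and fold enrichments of 5.30, 4.21 and 4.85.

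The number of STK3 peaks has to be read beside the length of the gene. Its longest listed transcript spans 488 kb, which gives 1.43 peaks per 100 kb, against a median of 2.34 over the 1957 protein-coding genes with a peak and a listed transcript of at least 100 kb. Genes with 7 or more peaks made up 4.13% of protein-coding genes. Of the 292 genes with a listed transcript of at least 400 kb, 210 had 7 or more peaks and the median was 9. Naming by the nearest transcript hides part of the signal in this gene: 15 peaks lay by their midpoint within the span of its listed transcripts, and 8 of these carried another symbol. Of these 8, 7 were placed by the annotation in STK3 introns but named for other transcripts inside the gene, 4 of them for the ribosomal protein pseudogene RPL19P14. Their fold enrichments ran from 3.83 to 8.35 and none had an FDR below 26.11%. Over the whole span STK3 had 3.07 peaks per 100 kb, against 2.30 in the 500 kb on either side and 2.03 over the chromosome.

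**Figure D2:**
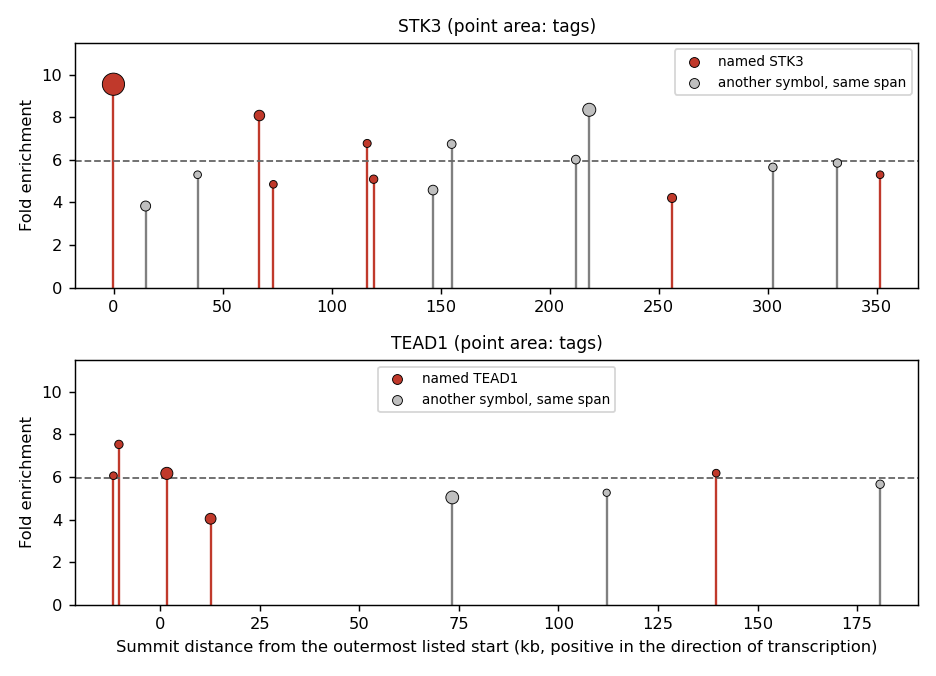
Peaks along STK3 (top) and TEAD1 (bottom), with the summit's distance from the outermost listed start in kb on the horizontal axis and the fold enrichment on the vertical axis (dashed line, 5.95, the median of all peaks). Red points carry the gene's own symbol and grey points another symbol within the same span, and point area follows tags. The 84-tag STK3 peak stands at the start, and 3 grey points lie among the TEAD1 peaks.

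STK4, the paralogue of STK3, had 1 peak, in intron 3 of 10, and no promoter-class peak. It covered chromosome 20 from 43607365 to 43608768 (1404 bp) with 42 tags (30.3 to 56.8), a fold enrichment of 4.09 and an FDR of 30.29%. Its tag count ranked 894 of all peaks while its fold enrichment ranked 65086, so tags and fold enrichment place this peak at opposite ends of the list. The RefSeq promoter window of STK4 held 35 CpGs and 4 GC boxes, and it was not placed against the peaks.

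The LATS kinase genes carried weak peaks only. LATS1 had a promoter-class peak of 752 bp on chromosome 6 (150035107 to 150035858) with 19 tags (11.4 to 29.7), a fold enrichment of 5.50 and an FDR of 43.57%. Its summit was 2255 bp inside the transcript it was given to. The second LATS1 peak held 11 tags at 5.30-fold and lay 4050 bp before the outermost listed start, in sequence annotated as downstream of a gene. A further peak within a LATS1 intron, with 10 tags and 7.06-fold, was named for KATNA1. LATS2 had 1 peak of 10 tags (4.8 to 18.4), 5.30-fold with an FDR of 44.28%, in distal intergenic sequence with its summit 9757 bp upstream of the start. No listed peak had its midpoint within the span of the LATS2 transcript.

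The coactivator genes YAP1 and WWTR1 had 5 peaks, of which 4 were in the promoter class, and none was strong. YAP1 had 23 tags (14.6 to 34.5) at 101982287 to 101983028 on chromosome 11, where the fold enrichment was 4.71, the FDR 46.19% and the summit 747 bp upstream of the outermost listed start. A second promoter-class YAP1 peak with 12 tags and 5.41-fold was assigned to a start 73.57 kb inside the gene, and an intronic peak had 16 tags and 4.68-fold. All 3 YAP1 peaks were below the list's median fold enrichment of 5.95. WWTR1 had a peak of 14 tags (7.65 to 23.5) across a start on chromosome 3 (149454088 to 149454654), with a fold enrichment of 5.54 and an FDR of 40.46%. Its other peak held 10 tags at 6.47-fold with an FDR of 47.04%, and its summit lay 2043 bp upstream of a start 33.44 kb inside the gene. Within the WWTR1 span 2 more peaks carried other symbols. They were an intronic peak named for RNU6-1098P (14 tags, 6.26-fold) and a promoter-class peak named for WWTR1-IT1 (11 tags, 5.39-fold). The 5 peaks named for YAP1 and WWTR1 held 10 to 23 tags. The counting interval was 4.8 to 18.4 for the lowest, 411 bp wide, and 14.6 to 34.5 for the highest, 742 bp wide. Differences between these peaks were not tested.

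Among the TEAD genes TEAD3 stood highest, TEAD4 and TEAD1 had weaker promoter-class peaks, and TEAD2 had 0 peaks in the list. The TEAD3 peak covered chromosome 6 from 35464948 to 35466762 (1815 bp) and held 92 tags (74.2 to 113), with a fold enrichment of 11.24 and an FDR of 0. By tags it ranked 68 of all peaks and by fold enrichment 368. Among the 6639 protein-coding genes with a promoter-class peak, 3.16% had a highest fold enrichment at least as large. The corresponding share was 6.13% for STK3. The summit of the TEAD3 peak was 665 bp upstream of the listed start, so the peak lay before the gene and not across its start.

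TEAD4 had 1 peak across its listed start on chromosome 12 (3068647 to 3069695, 1049 bp) with 31 tags (21.1 to 44.0), a fold enrichment of 6.06 and an FDR of 17.94%. TEAD1 had 5 peaks, the second largest number after STK3, and 14.6% of protein-coding genes with a peak had at least 5. Its longest listed transcript spans 199 kb, which gives 2.51 peaks per 100 kb. Over genes with a peak and a listed transcript of at least 100 kb the medians were 5 peaks and 2.34 per 100 kb. The promoter-class TEAD1 peak held 25 tags (16.2 to 36.9) at 6.17-fold with an FDR of 23.71%. It lay at 12767929 to 12768739 on chromosome 11, with its summit 1618 bp into the listed transcript. The other 4 were intronic, with 10 to 20 tags and fold enrichments of 6.06, 7.53, 4.04 and 6.18. A pair of these lay upstream of that listed start but within intron 2 of a longer TEAD1 transcript, so the promoter-class peak of TEAD1 is at an internal start. A further 3 peaks in TEAD1 introns carried other symbols, with fold enrichments of 5.04 to 5.66.

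**Figure D3:**
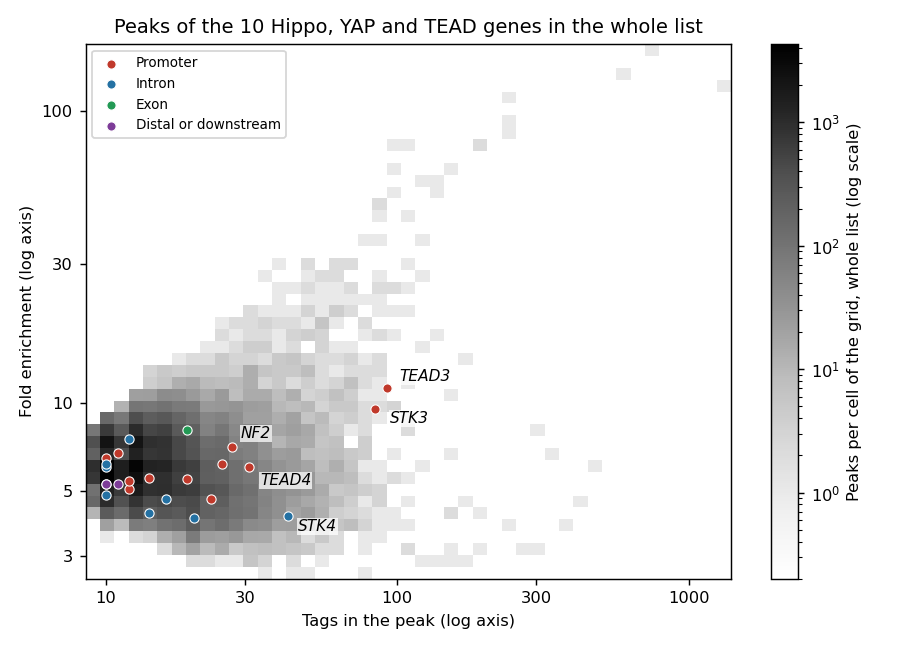
Tags (horizontal, log axis) against fold enrichment (vertical, log axis) for the 24 peaks (coloured by annotation class), over a grey grid that counts all 67071 peaks. TEAD3 (92 tags, 11.24) and STK3 (84 tags, 9.55) lie at the right, and STK4 (42 tags, 4.09) lies low for its tags.

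The strong peaks at TEAD3 and STK3 were wide and tag-rich within the strongest class but low in it by fold enrichment. There were 182 promoter-class peaks of protein-coding genes with an FDR of 0, with a median of 59 tags, a fold enrichment of 14.13 and a width of 1014 bp. The lower quartile of their fold enrichment was 10.91, just under the 11.24 of TEAD3 and above the 9.55 of STK3. In that class the TEAD3 peak took place 23 by tags, 18 by width and 132 by fold enrichment. The STK3 peak took place 32 by tags, 11 by width and 153 by fold enrichment. The TSS-overlapping peaks of NF2, with 27 tags, and TEAD4, with 31, lay within the middle 50% of the 2982 TSS-overlapping peaks of protein-coding genes, which was 15 to 34 tags. WWTR1, with 14 tags, lay just under it.

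The distance deposited for a peak depended on the strand of its gene, which bears on TEAD3 and on 4 other promoter-class peaks of the members. For all 30777 peaks off a TSS at minus-strand genes the deposited distance ran to the far edge of the peak, within 1 bp. For all 32626 such peaks at plus-strand genes it ran to the nearest edge. TEAD3, on the minus strand, was thus deposited at 1909 bp upstream and in the bin from 1 to 2 kb, whereas the nearest edge of the peak was 95 bp from the start. The STK3 peak deposited at 840 bp began 390 bp from its start, the LATS1 peak deposited at 2453 bp was 1703 bp away, and the WWTR1 peak deposited at 2302 bp was 1892 bp away. By the deposited bins 5 of the 10 genes had a peak within 1 kb of a TSS, against 22.3% of protein-coding genes and 39.7% of those with any peak. By the nearest edge there were 6, the added gene being TEAD3, against 24.8% of protein-coding genes and 44.1% of those with any peak. By that measure all 8 genes with a promoter-class peak stayed within 3 kb.

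**Figure D4:**
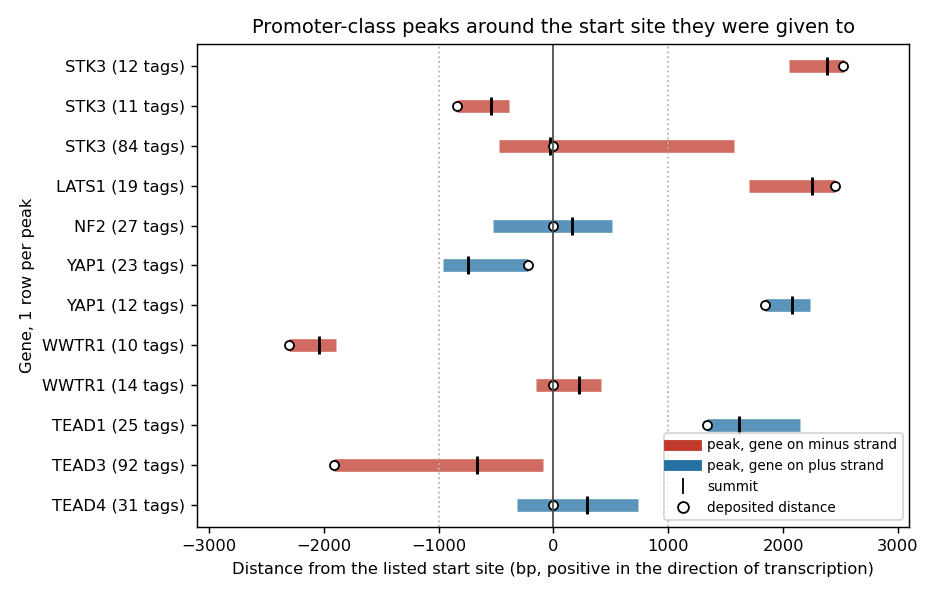
The 12 promoter-class peaks as bars around the start they were given to (0 on the horizontal axis, in bp, positive in the direction of transcription), with the summit as a black tick and the deposited distance as an open circle. Red bars are genes on the minus strand, where the circle sits at the far end of the bar, and blue bars are genes on the plus strand, where it sits at the near end. Dotted lines mark 1 kb.

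Start sites inside the genes account for part of the promoter class. Of the 12 promoter-class peaks, 6 were given to the outermost listed start of their gene, 1 each at STK3, NF2, YAP1, WWTR1, TEAD3 and TEAD4. The other 6 were given to internal starts, 2 of them at STK3 and 1 each at LATS1, YAP1, WWTR1 and TEAD1. This split was not computed over all promoter-class peaks, so it is not known whether the members differ from the list in it. Starts are known here only from transcripts that the list names, so an outermost listed start may not be the gene's own first start.

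Outside the 10 genes, the pathway list held 51 further genes in 4 groups, and 22 of them (43.1%) had a promoter-class peak, against 33.1% of all protein-coding genes. When the FDR was limited to 5%, 1 of the 51 genes kept such a peak, namely TAOK2. Among all protein-coding genes 2.47% had one within this limit, so 1 of 51 is no more than the general share. TAOK2 encodes a kinase of the TAO family, which acts upstream of the MST kinases. Its peak on chromosome 16 (29984417 to 29985193) lay across the TSS and held 36 tags (25.2 to 49.8) at 14.13-fold with an FDR of 0. Among the 20 upstream genes and kinase partners 11 (55.0%) had a promoter-class peak, and after TAOK2 came TAOK1 at 7.11 and FAT4, an atypical cadherin gene, at 6.18. Of the 9 genes for inhibitors of the kinases 6 (66.7%) had one, led by SLMAP at 7.08, a component of the STRIPAK phosphatase complex, LIMD1 at 6.93 and STRN at 6.82. Their FDRs were 37.49%, 41.76% and 46.99%.

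Partners of YAP1, WWTR1 and TEAD had a promoter-class peak at 3 of 11 genes (27.3%), namely VGLL4, a TEAD-binding competitor of YAP1, at 7.00, PTPN14 at 5.0 and BTRC at 4.94. Target genes of the pathway had one at 2 of 11 (18.2%), the highest being CRIM1 at 7.28 with an FDR of 37.29%. The share over all protein-coding genes was 33.1%, and with 11 genes in each group a difference from it was not tested. CCN1 and CCN2, the most used readouts of YAP1 activity and named outside the rule, had 1 peak outside the promoter class at 3.83-fold and 0 peaks. The median of the highest promoter-class fold enrichment was 6.32 over the 8 member genes and 5.50 over the 22 other genes, against 6.18 over all 6639 genes with such a peak. Apart from TEAD3, STK3 and TAOK2, no Hippo gene examined here had a promoter-class peak above 7.28-fold.

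**Figure D5:**
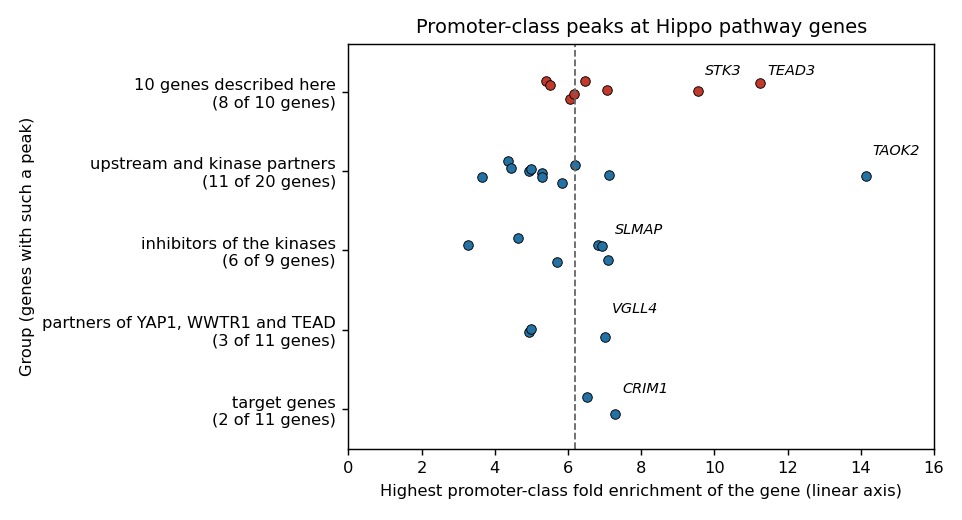
Highest promoter-class fold enrichment per gene (horizontal, linear axis) for the members (red, top row) and for 4 groups of other Hippo genes (blue), with the number of genes that have such a peak beside each group. The dashed line is the median over all genes with such a peak, 6.18, and TAOK2, TEAD3 and STK3 are the points furthest right.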

How the data were processed

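JARID2 ChIP and input DNA of MDA-MB-231 cells were each sequenced as 1 library, and the analysis used the authors' annotated peak list of the ChIP library on hg19. The submitters' processing notes name bcl2fastq, Bowtie 0.12.8, MACS, MACS2 and ChIPseeker. The sources used here do not state calling thresholds, the duplicate filter or how the input was used. The tag count per peak is deposited as a raw count. Per the file headers, the authors gave fold enrichment as a ratio and the FDR as a percent. The header of the deposited score was lost, and it was read as −log10 p times 10 because of its column position and a minimum of 30. Coordinates are 1-based.

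Peaks were taken by symbol. Symbols were matched to the RefSeq annotation (GRCh38.p14) of 20037 protein-coding genes, by symbol or by a synonym of 1 gene. Tags have exact Poisson intervals and shares exact Clopper-Pearson intervals at 95%, which cover counting error only. No test was made, since there was 1 library, and the peaks of a gene are not replicates. The functions for distances and classes were tested on simulated peaks. For every member, its strongest peak by fold enrichment, each TSS-overlapping peak and each peak with an FDR of at most 5% were described, and of each other group the 3 genes with the largest promoter-class fold enrichment. A gene picked by this rule is not reported here. Promoter windows were matched by symbol for 7 of 10 members. The members and lists were chosen with earlier results of these data known. Python 3.11.15, pandas 2.3.3 and scipy 1.17.1 were used.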

Additional observations from a re-analysis of the deposited data

How the results depend on the processing

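The number of peaks at the 10 genes depended most on the FDR limit: 24 became 4 at an FDR of at most 20% and 2 at 5%. It was 31 by midpoint within the listed spans, 36 with peaks in the introns or exons of the genes added, and 24 with peaks within 1 kb merged. Of the 8 genes with a promoter-class peak, 5 remained within 1 kb, 4 with a peak across a TSS, 5 at a score of at least 50 and 2 at an FDR of at most 5%. By the nearest peak edge there were 8 within 3 kb and 6 within 1 kb, and 6 at the outermost listed start. Of protein-coding genes with any peak, 39.7% had a promoter-class peak within 1 kb and 44.1% a nearest edge within 1 kb. The shares were 24.6% across a TSS and 4.39% at an FDR of at most 5%. For the score limit and the outermost start no such share was computed, so those counts have no background here. Among promoter-class peaks of protein-coding genes the upper quartile of the score was 48.88, just under the limit of 50. The share of the peaks in the promoter class was 25% within 1 kb, against 8.74% of all peaks at minus-strand genes and 12.5% at plus-strand genes. Of the 51 other Hippo genes 22 became 1 at an FDR of at most 5%, and 16 within 1 kb. The shares of all protein-coding genes at these limits were 2.47% and 22.3%. The median fold enrichment was 5.54 without STK3 and 6.27 over the highest peak of each gene, against 5.52. The settings by nearest edge, by introns and exons and by outermost start were chosen after the data were examined. No paired analysis was possible because there was 1 ChIP library. A peak of 10 tags has an interval of 4.8 to 18.4 tags, so counts of that size are imprecise, and differences between such weak peaks were not tested.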

Other observations

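The gene next to the strong STK3 peak had its own peak. OSR2, a zinc finger transcription factor gene on the opposite strand, was the symbol of a peak with 35 tags (95% Poisson interval 24.4 to 48.7), a fold enrichment of 7.18 and an FDR of 16.85% across its TSS. The listed starts of OSR2 and STK3 are 2088 bp apart. No other gene's peak lay outside the listed spans but within 5 kb of them at any of the 10 genes.

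The strand dependence of the deposited distances touches the whole list. By the deposited bins 8.74% of peaks at minus-strand genes lay within 1 kb of a TSS, against 12.5% at plus-strand genes. By the nearest peak edge these shares were 12.4% and 12.5%. The promoter class held 19.3% of minus-strand and 21.7% of plus-strand peaks, and within 3 kb of the nearest edge the shares were 21.6% and 21.7%. In all 758 minus-strand peaks would move into the reach of 3 kb and 1201 into that of 1 kb.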
